A study of Mus musculus with 12 samples.

Results

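The genes described here encode enzymes and carriers of mitochondrial and peroxisomal fatty acid oxidation. They were followed in ovaries and gonadal fat pads of C57BL/6J female mice made hyperandrogenic with dihydrotestosterone (DHT), a non-aromatizable androgen. The list holds 35 genes chosen by name for their place in the pathway, with earlier results of these data known. A gene was used where its row on the array carried 1 gene symbol, which left 34 members among 30176 genes: 17 mitochondrial, 12 peroxisomal, and 5 that are cytosolic or found in more than 1 compartment. The remaining member, Etfb, lies on a row with several symbols and was not used. The tested mice received a silicone capsule holding 5 mg of DHT powder at 25 days of age, and the control mice of the same strain and sex received an empty one. Both tissues were taken after about 60 days of treatment. Each group had 3 arrays (Affymetrix mouse transcriptome arrays, 12 in all), whose labels call them biological replicates without saying which ovary and fat arrays come from the same mouse. Values are on the log2 scale as deposited, and the 3 values of a group are given in the order of replicates 1, 2 and 3.

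In mitochondria, long-chain acyl groups enter as carnitine esters and are then shortened in repeated rounds of dehydrogenation, hydration, a further dehydrogenation and thiolysis, with electrons passed to the respiratory chain through the electron transfer flavoprotein. Peroxisomes start on very long-chain and branched acyl groups, use oxidases that make hydrogen peroxide in the first step, and hand shortened products on as carnitine or free acids. In adipose tissue oxidation competes with re-esterification and release of fatty acids, and in the ovary it is known as an energy source of follicular cells and oocytes. Many of these genes are known targets of PPAR alpha, a nuclear receptor that binds fatty acids.

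The upstream sequences of the members called in a comparison below are printed to show how unlike they are in base composition and in simple motifs. RefSeq windows of the GRCm38.p6 build matched 29 of the 35 listed genes, Ephx2 not among them. The 250 bases before the annotated start are given 5′ to 3′ on the strand of the gene, and the capitals mark a match on either strand to AGGTCA, the core element bound by many nuclear receptors, or to a direct repeat of it with 1 base between the copies, the element bound by PPAR and its partner RXR, allowing at most 2 mismatches.
Cpt1a, chr19:3323051-3323300 (+): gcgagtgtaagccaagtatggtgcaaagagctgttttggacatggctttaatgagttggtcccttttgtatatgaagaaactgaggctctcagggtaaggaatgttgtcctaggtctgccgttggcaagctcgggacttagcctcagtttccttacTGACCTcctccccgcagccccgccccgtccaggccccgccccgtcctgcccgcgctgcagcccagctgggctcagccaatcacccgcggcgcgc
Etfa, chr9:55512244-55512493 (-): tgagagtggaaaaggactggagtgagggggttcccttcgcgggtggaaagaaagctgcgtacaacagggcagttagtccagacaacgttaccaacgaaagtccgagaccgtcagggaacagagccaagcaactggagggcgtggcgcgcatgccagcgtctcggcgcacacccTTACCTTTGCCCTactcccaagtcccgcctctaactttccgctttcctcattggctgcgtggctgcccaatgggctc
Hao2, chr3:98893231-98893480 (-): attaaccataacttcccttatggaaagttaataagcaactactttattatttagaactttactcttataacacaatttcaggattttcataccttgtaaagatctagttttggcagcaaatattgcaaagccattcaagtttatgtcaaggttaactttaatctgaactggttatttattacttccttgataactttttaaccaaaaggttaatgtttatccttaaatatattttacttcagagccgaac
Acot3, chr12:84051894-84052143 (+): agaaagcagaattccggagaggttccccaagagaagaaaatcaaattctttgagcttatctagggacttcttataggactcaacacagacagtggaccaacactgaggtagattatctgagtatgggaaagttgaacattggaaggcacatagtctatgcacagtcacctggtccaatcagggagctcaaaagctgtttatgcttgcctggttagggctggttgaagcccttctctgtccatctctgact

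The Cpt1a and Etfa windows were 59.6% and 58.8% G and C, the Acot3 window 45.2% and the Hao2 window 28.4%, beside a median of 58.8% over the 29 members and 52.4% over all 32851 windows. The direct repeat was found in 3 member windows (Echs1, Etfa and Acot4), or 10.3%, against 3.24% of all windows. AGGTCA stood in 5 member windows (17.2%) against 14.0% of all, and TGTTCT, an element bound by androgen and glucocorticoid receptors, in 2 (6.90%) against 16.1%, all counted on both strands. GGGCGG (the GC box) was present in 17 member windows (58.6%) against 32.7% of all, and CCAAT in 15 (51.7%) against 33.8%. The AGGTCA matches can lie inside a direct repeat, and a match describes letters only.

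All 7 oocyte genes lay above the array median on every ovary array, and 1 of the 7 did so on every fat array. The other marker lists separated the tissues less by this measure: all 7 granulosa genes passed on every ovary array and 6 on every fat array, and all 7 measured adipocyte genes passed on every array of both tissues. Array medians ran from 4.35 to 4.43 in the ovaries and from 3.30 to 3.52 in fat, so levels were compared within a tissue only. Oviduct transcripts averaged 4.46, 5.34 and 6.76 on the DHT ovary arrays and 4.55, 7.31 and 4.40 on the control ovary arrays, which sets DHT replicate 3 and control replicate 2 apart. Over all genes, an adjusted p of at most 0.10 (limma, Benjamini-Hochberg) was reached by 104 higher and 137 lower genes in the ovaries and by 512 higher and 234 lower genes in fat. With each array centred on its median these splits were 91 higher and 207 lower in the ovaries, and 387 higher and 72 lower in fat. In the fat columns the values of 14 of the 34 members were first re-paired with their names, as described under the processing of the data.

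In the ovaries, Cpt1a, Hao2 and Ephx2 fell with DHT, and no member rose. Cpt1a encodes the outer-membrane carnitine palmitoyltransferase that commits long-chain fatty acids to mitochondrial oxidation. It read 9.27, 9.31 and 9.29 in DHT ovaries, against 9.69, 9.70 and 9.79 in control ovaries. The groups were far apart for the small spread within them, and the log2 fold change was -0.44 ± 0.0528 (SE, n = 3 each, limma adjusted p = 0.0371), or 1.35-fold lower. Hao2 encodes a peroxisomal oxidase of 2-hydroxy acids that makes hydrogen peroxide, which is not a step of beta-oxidation itself. It read 6.10, 6.75 and 6.17 in DHT ovaries and 7.97, 7.76 and 7.87 in control ovaries. Every DHT value lay more than 1 log2 unit under every control value, and the change was -1.52 ± 0.175 (limma adjusted p = 0.0315), or 2.87-fold lower. Ephx2 encodes soluble epoxide hydrolase, which acts on epoxides of fatty acids in the cytosol and in peroxisomes. It read 9.32, 8.92 and 8.78 in DHT ovaries and 10.15, 10.60 and 11.01 in control ovaries. The control ovaries spread more widely, without overlap, and the change was -1.57 ± 0.237 (limma adjusted p = 0.061), or 2.98-fold lower. In whole tissue, fewer cells that express a gene and less RNA per cell cannot be told apart.

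The 3 lower members were 9.375% of the 32 tested in the ovaries, beside 0.717% of all 19119 genes tested that were called lower and 0.544% called higher. These shares are not an unbiased comparison. The members were chosen with earlier results of these data known. The study itself had named Hao2 and Ephx2 as lower from these arrays. An unadjusted p under 0.05 was found for 10 members. The share of all genes under this limit was not counted, so this and the like counts below only describe the lists. The calls stood close to the threshold. The adjusted p of Cpt1a was 0.0758 without control replicate 1 and 0.126 to 0.153 without any 1 of the other 5 arrays, and that of Ephx2 was 0.0539 without control replicate 1 and 0.126 to 0.212 without any 1 of the other 5. Hao2 passed without DHT replicate 2 (0.0126), control replicate 1 (0.0799) or control replicate 2 (0.0881), and missed the threshold without DHT replicate 1 (0.103), DHT replicate 3 (0.135) or control replicate 3 (0.131).

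**Figure D1:**
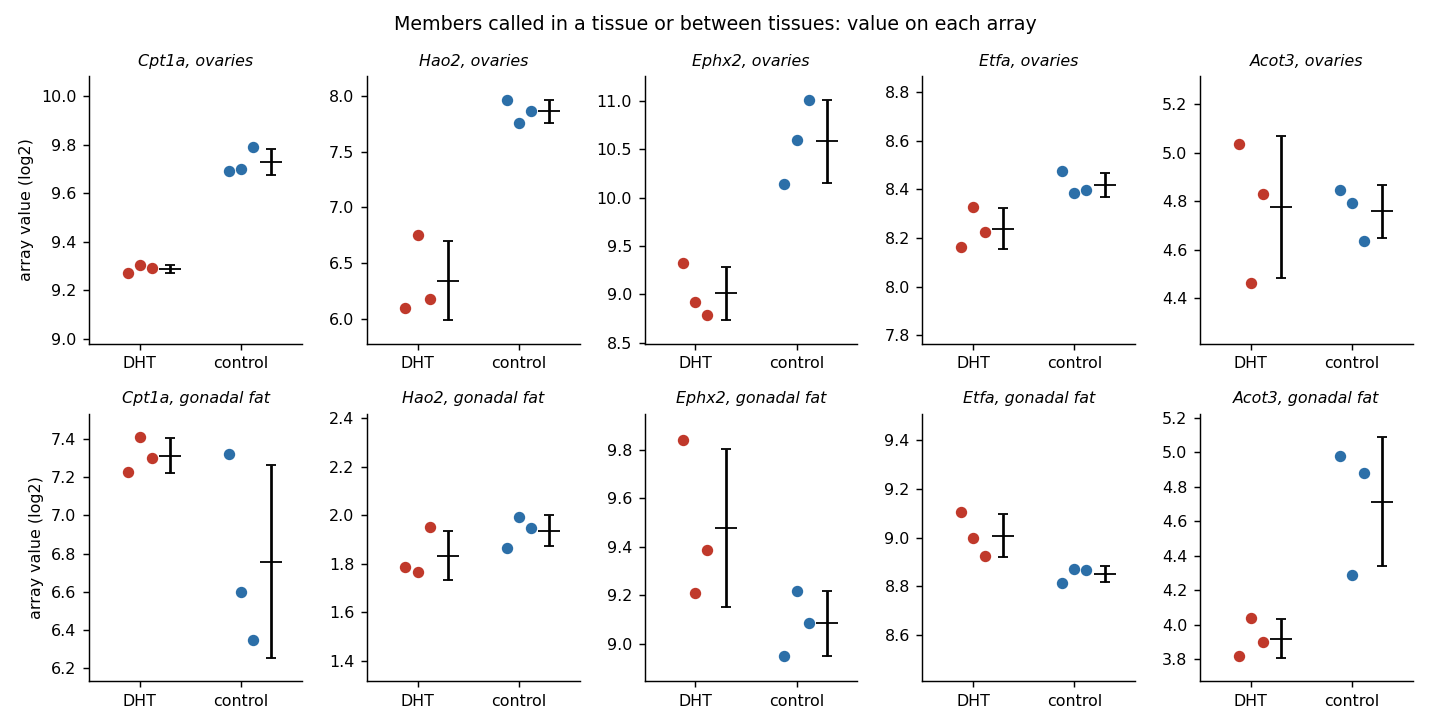
Array values (log2) of the 5 members called in a tissue or between tissues, for DHT (red) and control (blue) mice, with ovaries in the upper and gonadal fat in the lower row. Points are the 3 arrays of a group, and the bar beside them is the mean with 1 SD. Each panel has its own axis. Cpt1a, Hao2 and Ephx2 separate in the ovaries and Acot3 separates in fat, where Hao2 stays between 1.77 and 1.99. Etfa separates narrowly in both tissues, lower in DHT ovaries and higher in DHT fat.

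Beside Cpt1a, the other carnitine genes had lower means in DHT ovaries without passing the test. Cpt2, the inner-membrane carnitine palmitoyltransferase, read 7.72, 7.67 and 7.64 in DHT ovaries and 7.91, 8.07 and 8.40 in control ovaries. The 3 DHT values were nearly equal and lay under a wide control range, and the log2 fold change of -0.45 was close in size to that of Cpt1a, with an SE of 0.123 (adjusted p = 0.2). Slc25a20, the carnitine-acylcarnitine carrier of the inner membrane, had a change of -0.11 (adjusted p = 0.562).

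The enzymes of the mitochondrial cycle differed less from control than the carnitine palmitoyltransferases. The acyl-CoA dehydrogenases for very long, long, medium and short chains had log2 fold changes of -0.17 (Acadvl), -0.14 (Acadl), -0.10 (Acadm) and -0.08 (Acads). Those of Hadha and Hadhb, the subunits of the trifunctional protein, were both -0.05, those of Hadh and Echs1, which act on shorter chains, -0.11 and -0.08, and that of the thiolase gene Acaa2 was -0.17. Eci1 and Decr1, which prepare unsaturated chains, had -0.18 and -0.10. The electron transfer genes Etfa and Etfdh both had -0.18, and Etfa read 8.16, 8.33 and 8.23 in DHT ovaries against 8.48, 8.39 and 8.40 in control ovaries. The thioesterase gene Acot2 was the single mitochondrial member with a higher mean, at 0.06.

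Counted together, 16 of the 17 mitochondrial members had a lower mean in DHT ovaries, beside 51.6% of all genes tested, and their median log2 fold change was -0.11, beside -0.0038 over all genes. In 8 of the 17 (47.1%) every DHT array lay under every control array, namely in Cpt1a, Cpt2, Acadvl, Eci1, Decr1, Etfa, Etfdh and Acaa2, beside 13.1% of all genes tested. None lay wholly above, beside 6.88% of all genes. Averaged over the 17 members and set against the control mean, the arrays stood at -0.17, -0.12 and -0.16 in DHT ovaries and at -0.02, -0.04 and 0.06 in control ovaries. The 2 groups did not overlap. The median kept its sign with quantile normalization (-0.13) and median centring (-0.15), and these members share arrays, so the count is a description with no test.

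The peroxisomal members other than Hao2 were closer to control in the ovaries. Of the 10 tested, 8 had lower means, beside 51.6% of all genes tested, with a median log2 fold change of -0.06. The groups were apart in Hao2 and Pex11a, or 20% of the 10, near the 13.1% of all genes tested. The wider list of peroxisomal enzymes and transporters described below stood further from control, with a median of -0.18 over 20 tested. Pex11a, whose product takes part in peroxisome division, read 5.85, 5.96 and 5.94 in DHT ovaries and 6.24, 6.12 and 6.10 in control ovaries, a change of -0.24 (adjusted p = 0.193). The chain-shortening enzymes had -0.05 (Ehhadh), -0.10 (Hsd17b4), -0.01 (Acaa1a) and -0.03 (Acaa1b), and the branched-chain oxidase gene Acox3 had 0.16. Acaa1a and Acaa1b are close copies of each other, as are Acot1 to Acot4, and how far their probes tell them apart is not known here. The thioesterase genes Acot3 and Acot8 and the carnitine octanoyltransferase gene Crot had 0.02, -0.08 and -0.14, none past the test. Acot4 and Acox2 were too dim to be tested in the ovaries. Acox2, an oxidase of branched chains and bile acid intermediates, read 3.81, 4.10 and 4.88 in DHT ovaries and 3.87, 5.13 and 3.96 in control ovaries, and its highest value in each group fell on the array with the most oviduct transcripts.

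Among the members outside a single compartment, Crat, a carnitine acetyltransferase, read 7.14, 7.13 and 7.28 in DHT ovaries and 7.49, 7.38 and 7.43 in control ovaries. The groups did not overlap, and the change was -0.25 (adjusted p = 0.185). Eci2, an isomerase of unsaturated chains, Amacr, a racemase of branched chains, and Acot1, a cytosolic thioesterase, had 0.05, 0.01 and 0.13, with adjusted p-values from 0.82 to 0.981.

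Markers of other cells moved with these results in the ovaries. Corpus luteum genes averaged 6.88, 7.37 and 7.23 on the DHT arrays and 9.21, 10.68 and 11.16 on the control arrays, with 4 of the 5 measured called lower and none below the array median throughout. Control replicate 1, the lowest control array for this list, was also the lowest in Ephx2 and in Cpt1a (9.69, 9.70 and 9.79). It was the highest in Hao2 (7.97, 7.76 and 7.87), the remaining called member. In sections, the study found corpora lutea to be absent from the ovaries of DHT-treated mice. The part of luteal transcripts in the results was not tested. The 7 measured adipocyte genes averaged 6.35, 5.83 and 5.98 on the DHT arrays and 7.20, 6.61 and 6.49 on the control arrays. With the mean of Adipoq, Retn, Plin1 and Cidec as a covariate, the changes were at least as large, at -0.49 for Cpt1a (limma adjusted p = 0.197), -1.71 for Hao2 (0.186) and -1.79 for Ephx2 (0.265), and none passed. With the pair of oviduct-rich arrays left out, a setting chosen after seeing the data, they were -0.45 (0.32), -1.49 (0.29) and -1.46 (0.416).

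**Figure D2:**
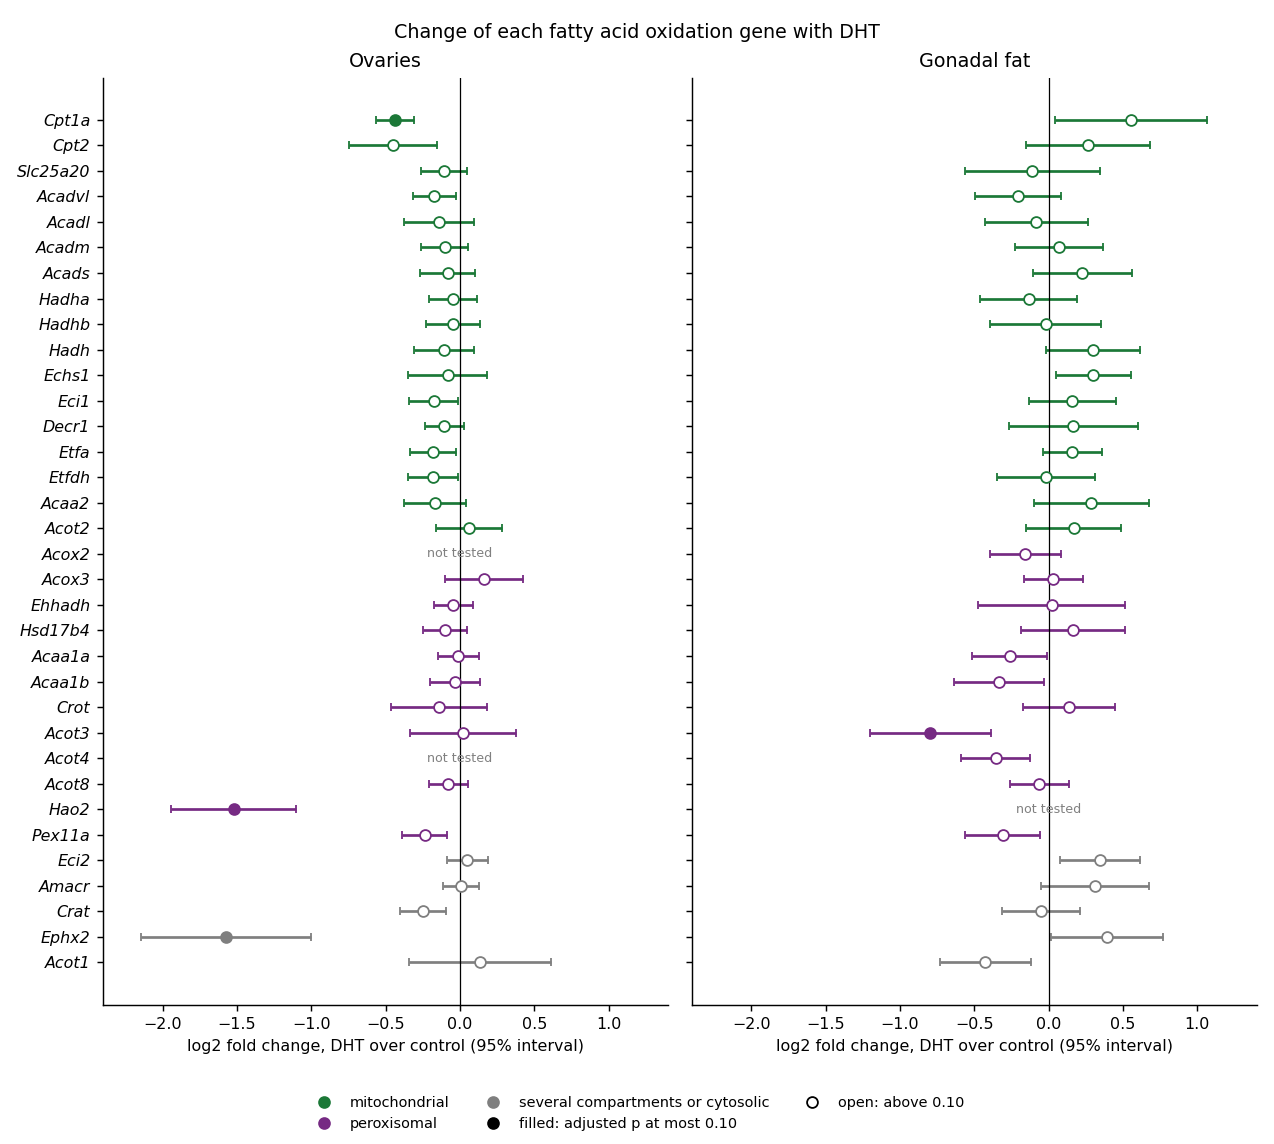
Log2 fold change of each member, DHT over control, with its 95% interval, in the ovaries (left) and in gonadal fat (right). Mitochondrial members are green, peroxisomal purple and the others grey, and filled points have an adjusted p of at most 0.10. Cpt1a, Hao2 and Ephx2 are filled in the ovaries and Acot3 in fat, and members marked as not tested were too dim in that tissue.

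In gonadal fat, 1 member, Acot3, fell and none rose. Acot3 encodes a peroxisomal thioesterase that releases free acids from long-chain acyl-CoA. It read 3.82, 4.04 and 3.90 in DHT fat and 4.98, 4.29 and 4.88 in control fat. The gene was dim, with the DHT values close above array medians of 3.30 to 3.52. The DHT values lay under all control values, the nearest being control replicate 2, and the change was -0.79 ± 0.176 (limma adjusted p = 0.0714), or 1.73-fold lower. It was 3.03% of the 33 members tested, beside 1.22% of all 19251 genes tested that were called lower and 2.66% called higher, and 10 members had an unadjusted p under 0.05. The adjusted p was 0.0114 without control replicate 2 and 0.126 to 0.232 without any 1 of the other 5 arrays. It was 0.142 with quantile normalization, 0.166 with median centring and 0.105 with no filter on dim genes. In the row order as deposited, values of another row stand under its name, with a change of -0.06 (limma adjusted p = 0.819).

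The neighbouring thioesterase genes were not alike in fat. Acot4, also peroxisomal, read 4.89, 4.73 and 4.66 in DHT fat and 5.12, 5.00 and 5.23 in control fat, a change of -0.36 (adjusted p = 0.136). Acot1, the cytosolic form, read 5.58, 5.65 and 5.23 in DHT fat and 6.07, 5.88 and 5.79 in control fat, a change of -0.43 (adjusted p = 0.169). Neither gene's groups overlapped. Acot2, the mitochondrial form, read 8.46, 7.97 and 8.06 in DHT fat and 8.08, 7.85 and 8.05 in control fat, with a change of 0.17 (adjusted p = 0.599). Acot8, a peroxisomal thioesterase of another family, had -0.06. As paralogs, Acot1 to Acot4 may share probe signal, so their separate values are uncertain.

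The remaining peroxisomal members in fat were mostly at or under control. Acaa1a and Acaa1b, thiolase genes, had changes of -0.26 (adjusted p = 0.293) and -0.33 (0.26), and Pex11a had -0.31 (0.214), each with groups that did not overlap. Hsd17b4, Ehhadh, Acox3, Crot and Acox2 had 0.16, 0.02, 0.03, 0.14 and -0.16. Of the 11 peroxisomal members tested, 7 had a lower mean, beside 51.4% of all genes tested, and the median was -0.16, beside -0.0059 over all genes. All DHT values lay under all control values in 5 of them (45.5%), beside 8.23% of all genes tested. This median was -0.07 with quantile normalization and -0.08 with median centring, and -0.09 and -0.10 without DHT replicate 2 and without control replicate 2. Hao2 read 1.79, 1.77 and 1.95 in DHT fat and 1.87, 1.99 and 1.95 in control fat, below the array median throughout, and was not tested.

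**Figure D3:**
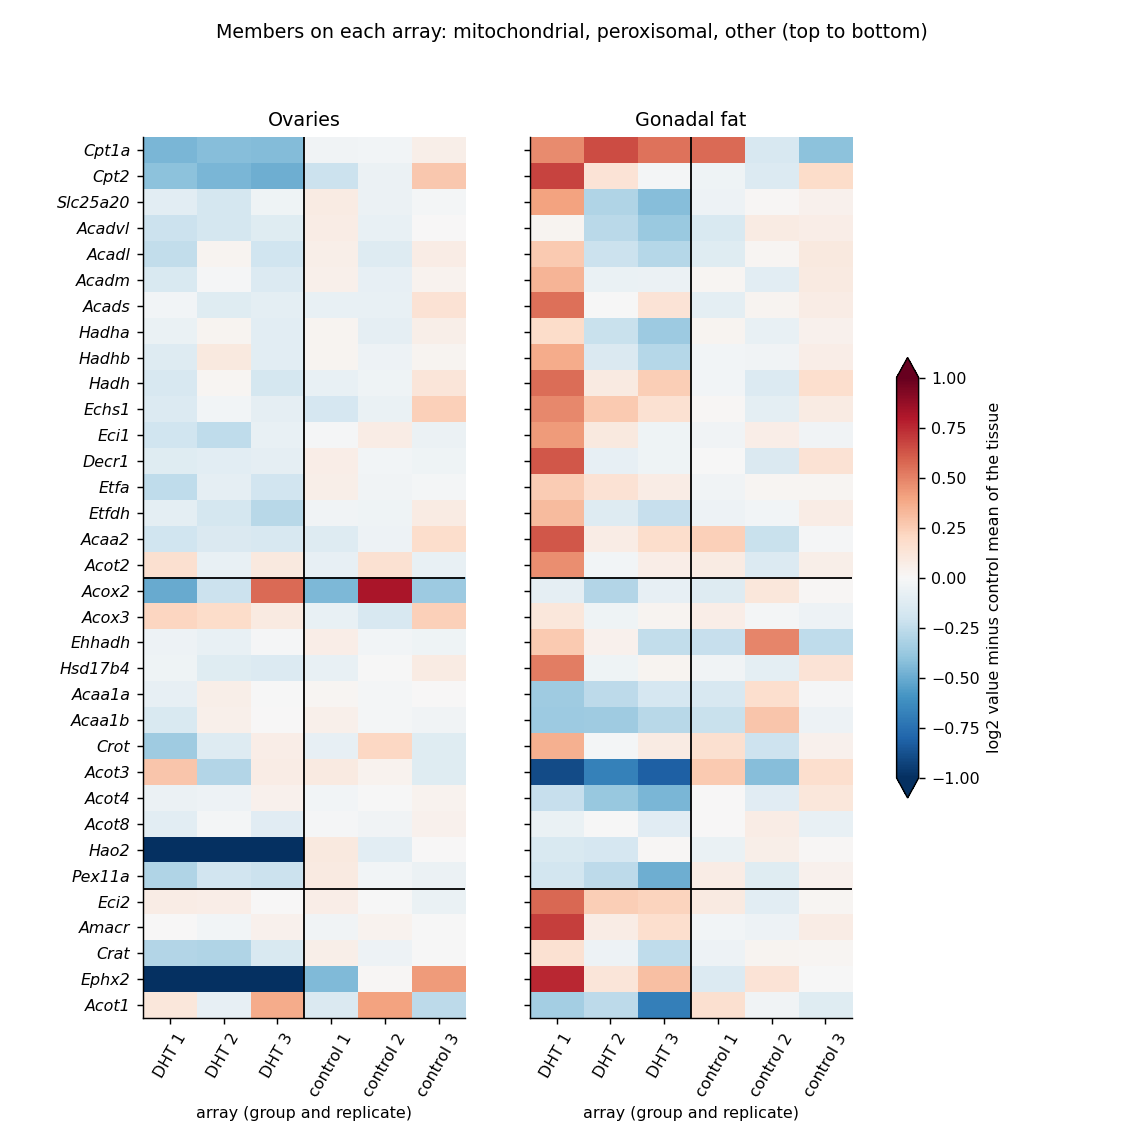
Log2 value of each member on each array minus the control mean of its tissue, with DHT arrays left of control arrays. Colours end at 1 log2 unit on either side. In the ovaries the upper, mitochondrial block is mostly pale blue on the DHT arrays with Cpt1a and Cpt2 the darkest, and in fat DHT replicate 1 is red through most of that block.

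None of the 17 mitochondrial members passed the test in fat (limma, 2 with an unadjusted p under 0.05). Their changes ran from -0.20 (Acadvl) to 0.55 (Cpt1a), 11 had a higher mean, beside 48.6% of all genes tested, and the median was 0.16. Cpt1a read 7.23, 7.41 and 7.30 in DHT fat and 7.32, 6.60 and 6.35 in control fat. The control values were spread over almost 1 log2 unit, with control replicate 1 inside the DHT range, and the change of 0.55 had an SE of 0.223 (adjusted p = 0.272). Without control replicate 1 it was 0.84 (limma adjusted p = 0.029). Cpt2 read 8.65, 8.11 and 7.96 in DHT fat and 7.93, 7.84 and 8.15 in control fat, a change of 0.26 (adjusted p = 0.512). Echs1 (0.30, adjusted p = 0.232) and Etfa (0.16, adjusted p = 0.404) were the mitochondrial members whose DHT values all lay above control. They were 11.8% of the mitochondrial list, beside 14.5% of all genes tested. Etfa read 9.10, 9.00 and 8.92 in DHT fat and 8.81, 8.87 and 8.87 in control fat.

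The other cycle enzymes had changes of 0.30 (Hadh), 0.29 (Acaa2), 0.23 (Acads), 0.17 (Decr1), 0.16 (Eci1), 0.07 (Acadm), -0.08 (Acadl), -0.13 (Hadha) and -0.02 (Hadhb), and Etfdh and Slc25a20 had -0.02 and -0.11. Genes for the enzymes of shorter chains stood above those for the trifunctional protein and the longer-chain dehydrogenases in this order of changes, which was not tested.

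The mitochondrial mean in fat rested on 1 array. Averaged over the 17 members and set against the control mean, DHT fat stood at 0.41, -0.00 and -0.04 and control fat at 0.02, -0.06 and 0.04. DHT replicate 1 was the highest of the 6 arrays in 15 of the 17 mitochondrial members and in 3 of the 11 peroxisomal ones. It was so in 4 of the 5 other members and in 27.1% of all genes tested. It was also the highest in 17 of 20 genes of the wider list of peroxisomal enzymes and transporters described below. Without it the mitochondrial median was 0.02. Brown adipocyte transcripts on the same arrays averaged 5.27, 4.37 and 4.48 in DHT fat and 5.20, 5.67 and 5.62 in control fat, with 2 of the 7 called lower and none below the median on all 6 arrays. The general adipocyte list averaged 10.63, 10.50 and 10.51 in DHT fat and 10.01, 10.02 and 10.13 in control fat, with 2 of the 7 called higher. Skeletal muscle transcripts were high on control replicate 3, at 7.09, beside 4.91 to 5.49 on the other 5 fat arrays. The part of these markers in the result was not tested.

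**Figure D4:**
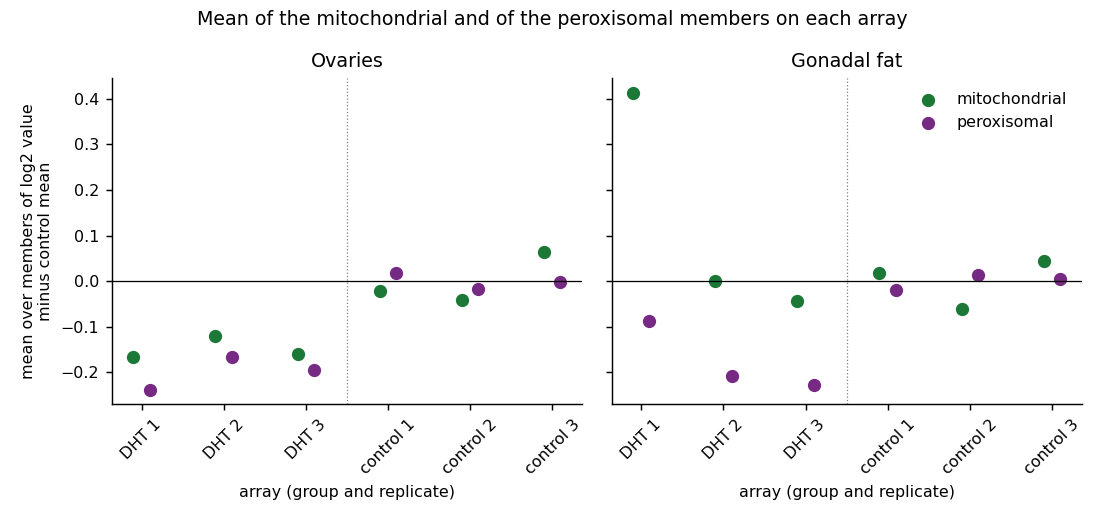
Mean over the 17 mitochondrial (green) and the peroxisomal (purple) members tested, 10 in the ovaries and 11 in gonadal fat, of the log2 value minus the control mean of the tissue, on each array. In the ovaries the DHT arrays lie below the control arrays in both sets, where the peroxisomal mean includes the large fall of Hao2, and in fat the mitochondrial mean is set apart by DHT replicate 1 at 0.41.

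Of the 5 remaining members 3 had higher means in DHT fat, without passing. Eci2 read 7.82, 7.49 and 7.47 in DHT fat and 7.34, 7.15 and 7.27 in control fat, a change of 0.35 (adjusted p = 0.202). Amacr had 0.31 (0.372) and Crat -0.05 (0.849). In Eci2 and Amacr every DHT value lay above every control value, in Amacr only just (5.3456 against 5.3455). Ephx2, which fell in the ovaries, read 9.84, 9.21 and 9.39 in DHT fat and 8.95, 9.22 and 9.08 in control fat, with overlap at DHT replicate 2 and a change of 0.39 (adjusted p = 0.285).

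The effect of DHT was then compared between the tissues, as the change in fat minus the change in the ovaries. It differed for Ephx2, Cpt1a and Etfa, each with the effect in fat above that in the ovaries. For Ephx2 the effects were 0.39 in fat and -1.57 in the ovaries, a difference of 1.97 ± 0.307 (SE, limma adjusted p = 0.0071, 12 arrays). For Cpt1a they were 0.55 in fat and -0.44 in the ovaries, a difference of 0.99 ± 0.259 (limma adjusted p = 0.0641). For Etfa they were 0.16 in fat and -0.18 in the ovaries, a difference of 0.34 ± 0.101 (limma adjusted p = 0.0974). The 3 genes were 9.68% of the 31 members tested in both tissues, beside 4.63% of all 18080 genes called in this direction and 1.51% in the other (limma). The choice of members with earlier results known limits this comparison too, and the study had named Ephx2 in the ovaries. An unadjusted p under 0.05 was found for 11 members. The calls over all genes were 837 and 273, and 1338 and 157 with median centring, which moved the median difference of all genes by 0.117. The same 3 members were called under it.

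The difference in Ephx2 passed when any 1 of the 12 arrays was left out, with adjusted p-values from 0.00343 to 0.0224. That in Cpt1a passed without ovary control replicate 1 (0.0908), fat DHT replicate 1 (0.0994), fat DHT replicate 3 (0.0719) or fat control replicate 1 (0.00193), and was 0.107 to 0.14 without any 1 of the other 8. That in Etfa passed without fat DHT replicate 3 (0.0596) and was 0.113 to 0.182 without any 1 of the other 11. With the mouse as a block across tissues, taking the replicate numbers as mice, Etfa had 0.145 and Cpt2 came in at 0.0828, from a difference of 0.72 that otherwise had an adjusted p of 0.132. Acot3 narrowly missed the threshold with the opposite sign, at -0.81 (adjusted p = 0.108).

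The mitochondrial members had a median difference of 0.27, with 14 of 17 above 0, beside 0.0092 over all genes and 51.5% of genes above 0. Without fat DHT replicate 1 the median was 0.04, with 11 of 17 above 0. The largest beside Cpt1a and Cpt2 were in Acaa2 (0.46), Hadh (0.41) and Echs1 (0.38), none past the test, and Slc25a20, Acadvl, Acadl, Hadha and Hadhb lay between -0.08 and 0.06. The 9 peroxisomal members tested had a median of -0.07, with 4 above 0 and none called (limma, 1 with an unadjusted p under 0.05).

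**Figure D5:**
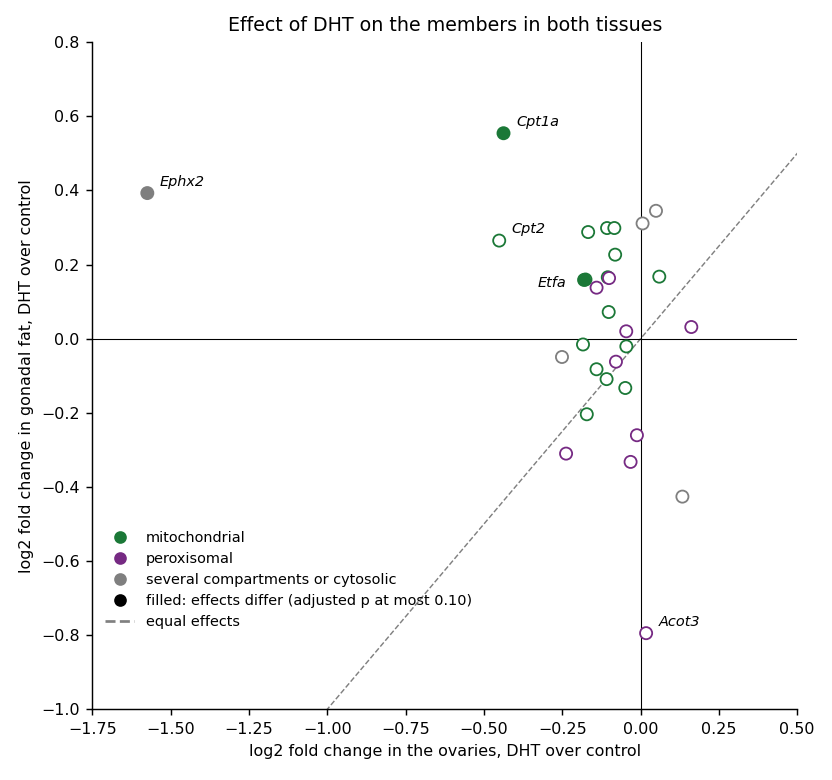
Log2 fold change with DHT in gonadal fat (vertical axis) against that in the ovaries (horizontal axis) for the 31 members tested in both. Filled points mark a difference between tissues at an adjusted p of at most 0.10. Ephx2, Cpt1a and Etfa lie in the upper left, and Acot3 lies lowest, at -0.79 in fat and 0.02 in the ovaries.

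The wider pathway was read from lists that include genes the study itself named from these arrays, so their counts are not independent of its choices. Among 10 regulators tested, Ppara, the PPAR alpha gene, rose in fat, to 5.65 ± 0.116 in DHT fat against 4.89 ± 0.179 in control fat (SD, n = 3 each), a change of 0.76 (limma adjusted p = 0.0225). No regulator was called in the ovaries, where 2 had an unadjusted p under 0.05. Of 7 known PPAR alpha targets outside the members, Angptl4, a lipoprotein lipase inhibitor, rose in fat by 0.96 (adjusted p = 0.048), and Ucp3, a mitochondrial uncoupling protein gene, fell by 0.49 (0.0961), and none was called in the ovaries (3 with an unadjusted p under 0.05). Of 14 genes for fatty acid activation and carnitine supply, Slc22a5, the plasma membrane carnitine transporter, rose in fat by 0.51 (0.0597), and none was called in the ovaries (2 with an unadjusted p under 0.05). Of all genes tested in fat, 2.66% were called higher and 1.22% lower, and whether these short lists exceed those shares was not tested.

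In the list of other peroxisomal enzymes and transporters, no gene was called in both tissues. Of 20 tested in the ovaries, 3 fell and none rose, beside 0.717% and 0.544% of all genes tested. Scp2, a sterol carrier and thiolase gene, changed by -0.50 (limma adjusted p = 0.0608), Idh1, an NADP-linked isocitrate dehydrogenase, by -1.16 (0.0819), and Nudt7, a CoA diphosphatase, by -0.44 (0.0942). Of the 20 in the ovaries, 16 had a lower mean, and the median was -0.18. In 12 of the 20 (60%) every DHT array lay under every control array, beside 13.1% of all genes tested. Of 20 tested in fat, 4 rose and none fell, beside 2.66% and 1.22% of all genes tested, and 3 of 19 rose without Mgst3, which is not peroxisomal. These were Abcd2, a very long-chain acyl-CoA transporter, with 1.12 (0.00752), Phyh, the hydroxylase of phytanic acid oxidation, with 0.68 (0.0161), Mgst3, a microsomal glutathione transferase, with 1.08 (0.0241), and Ech1, a dienoyl-CoA isomerase, with 0.44 (0.0636). DHT replicate 1 was the highest fat array in 17 of the 20 (85%). The study had named Idh1 in the ovaries, and Abcd2 and Mgst3 in fat, from these arrays. Abcd2, Phyh and Mgst3 passed without any 1 of the 6 fat arrays, Scp2, Nudt7 and Ech1 passed in none of those fits of their tissue, with adjusted p-values of at least 0.102, 0.112 and 0.101, and Idh1 passed without control replicate 1 alone (0.0671). Leaving out 1 array also ended the fat calls of Ppara without DHT replicate 2 or control replicate 3 (up to 0.105), of Angptl4 without DHT replicate 2, DHT replicate 3 or control replicate 3 (up to 0.192), of Slc22a5 without DHT replicate 2, control replicate 2 or control replicate 3 (up to 0.218), and of Ucp3 without any but control replicate 1 (up to 0.327).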

How the data were processed

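Total RNA of ovaries and gonadal fat pads was measured on Affymetrix mouse transcriptome arrays. The authors deposited log2 values, 1 for each transcript cluster on each array, and these were used as they stand. MAS5 appears in the submitters' processing notes. Their normalization and array build are not given in the sources used here. With 3 arrays per group, precision is limited by that number.

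In the fat columns, 26501 of the 65929 rows (40.2%) did not stand beside their names. Sorting the names so that "_" precedes digits gave a correlation of ovary and fat means across these rows of 0.946, which was 0.0139 as deposited and 0.943 over rows not moved. The platform table gave 1 gene symbol for 30638 rows, several for 2176 and none for 33115. Only the first were used, by the row of highest mean per gene (30176 genes, 1 row for each member).

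Genes entered the test of a tissue if they exceeded the array median on at least 3 of its 6 arrays. DHT was compared with control using limma 3.58.1 under R 4.3.3 (lmFit and eBayes, two-sided), adjusted by Benjamini-Hochberg over all genes tested, with calls at 0.10 or less. The methods of the study name an online SAM tool without its settings, and limma took its place. The difference between tissues came from 1 fit of 12 arrays with 4 group means and no block for the mouse. The fits were tested on simulated data, and plots used matplotlib 3.10.9.

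Members and lists were chosen with earlier results of these data known. Array values are given for members that were called, or at least 0.5 apart on the log2 scale without overlap, or named by the study, and for some others chosen after their values were seen. Other lists name up to 4 called genes per tissue. After removal of group means, ovary and fat arrays of the same number had correlations across genes of 0.138, 0.156 and 0.192 in DHT mice and 0.114, 0.110 and 0.127 in control mice, so the numbers were taken to pair the tissues, from the data and not from the labels. Alternatives covered the scaling, filter, row per gene, variance model, arrays in the fit, blocks, thresholds, row order, single arrays left out and an adipocyte covariate.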

Additional observations from a re-analysis of the deposited data

Results flagged for a closer look

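For 3 members the effect of DHT differed between the tissues by a test of the difference itself (effect in fat minus effect in the ovaries, limma). The difference was 1.97 in Ephx2 (adjusted p = 0.0071), 0.99 in Cpt1a (0.0641) and 0.34 in Etfa (0.0974). This fit did not pair the tissues by mouse. With the replicate number as the mouse and a block, Etfa did not pass (limma adjusted p = 0.145). Ephx2 (0.00843) and Cpt1a (0.0868) did.

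The same test was passed by 14 genes of the wider lists. They included 1 of 10 regulators, 1 of 7 PPAR alpha targets and 3 of 14 genes for activation and carnitine supply. The rest were 1 of 19 genes of neighbouring mitochondrial pathways and 8 of 20 other peroxisomal genes. None of 12 peroxisome biogenesis genes passed. All 14 had the effect in fat above that in the ovaries, beside 4.63% of all genes called in that direction and 1.51% in the other. Median centring turned these into 1338 and 157 genes, against 837 and 273 as reported. In the list of other peroxisomal enzymes and transporters the effect in fat lay above that in the ovaries in 18 of 20 tested, beside 51.5% of all genes tested. The difference was called in 8 of the 20, or in 7 of 19 without the microsomal Mgst3. The 8 were Far1 (1.05) and Agps (0.51), which act with Gnpat (0.60) in ether lipid synthesis, Mgst3 (1.01), Abcd2 (0.93), Ech1 (0.61), Phyh (0.58) and Scp2 (0.52). Their limma adjusted p-values ran from 0.0166 in Ech1 to 0.0821 in Abcd2. The study had named Mgst3 and Abcd2 as higher in fat from these arrays. Far1 averaged 6.03 ± 0.136 in DHT fat and 5.81 ± 0.224 in control fat, and 7.42 ± 0.063 in DHT ovaries and 8.24 ± 0.394 in control ovaries (SD, n = 3 each).

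Acsl4, an acyl-CoA synthetase that favours arachidonic acid, had the largest difference among the listed genes outside the members, 1.72 (limma adjusted p = 0.0531). It averaged 6.70 ± 0.081 in DHT fat and 6.50 ± 0.258 in control fat, and 7.73 ± 0.314 in DHT ovaries and 9.25 ± 0.769 in control ovaries. The differences in Slc22a5 (0.63), Acsl5 (0.54), Angptl4 (1.18), Ppara (0.58) and Acot9 (0.61) had adjusted p-values from 0.0305 in Angptl4 to 0.0879 in Acot9.

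When each of the 12 arrays was left out in turn, Ech1, Mgst3, Far1 and Angptl4 passed throughout. Gnpat missed the threshold in 1 of 12 such fits (without ovary control replicate 3), Phyh in 3, Acsl4 and Acsl5 in 4 each, Slc22a5 in 6, Ppara and Scp2 in 8 each, Acot9 and Abcd2 in 9 each and Agps in 10, with adjusted p-values of up to 0.179 in these fits. The direction of each difference was kept in all of these fits.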

How the results depend on the processing

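With 3 arrays per group most calls stood near the threshold, so counts moved. No called member, count or median changed sign. Of 1073 values of single members under an alternative, 36 had the other sign than reported, all of uncalled members. An example is Acot4 in fat, -0.36 and 0.10 in the deposited row order, where values of another row stand under its name. Of the 1073, 994 kept their side of the threshold or moved by less than 1 SD, 57 lost a call, 6 gained one and 16 moved by more. Most of the 1073 belong to uncalled members, which cannot lose a call, so these counts do not measure how stable the calls were. With 1 array left out, the ovary calls were lost in 5 of 6 fits for Cpt1a and Ephx2 and 3 of 6 for Hao2. That of Acot3 in fat was lost in 5 of 6. The tissue differences were lost in 8 of 12 for Cpt1a, 11 of 12 for Etfa and 0 of 12 for Ephx2. The 3 calls in the ovaries became 0 with the replicate number as a block, which pairs no DHT with a control mouse (same-number correlations within a tissue of -0.474 to 0.331), 0 with the adipocyte covariate and 0 with both oviduct-rich arrays left out, and 0 to 3 with 1 array left out. Cpt1a alone was lost in 1 fit of all 12 arrays (0.413). The 1 call in fat became 0 with median centring, no filter, a limit of 0.05 on the adjusted p, and the methods' criteria of 2-fold and p of at most 0.01. It also became 0 with the filter at the 75th percentile and over rows not moved, where Acot3 was not tested. The same held in the deposited row order, where values of another row stand under the name of Acot3. It became 4 with all 12 arrays in 1 fit (Acot3, Acot4, Eci2, Pex11a) and 2 with the replicate block (Acot1, Acot3), and was 0 to 1 with 1 array left out, where the gene called without control replicate 1 was Cpt1a. With quantile normalization it was Pex11a and not Acot3. The 3 differences between tissues became 1 with both oviduct-rich arrays left out and 1 with that limit of 0.05 (Ephx2 in each), and 1 to 5 with 1 array left out. They became 0 in the deposited row order and 1 over rows not moved (Etfa). Cpt1a and Ephx2, on re-paired rows, were not tested in either of these settings, so their calls could not be kept there. Hao2, below the median in fat, was called in place of Etfa without the filter. The mouse as a block across tissues kept Cpt1a and Ephx2 and exchanged Etfa for Cpt2.

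The mitochondrial median in the ovaries, -0.11, was -0.16 with the adipocyte covariate, -0.16 with both oviduct-rich arrays left out and -0.15 to -0.10 with 1 array left out. The mitochondrial median in fat, 0.16, was 0.24 with median centring, 0.10 with quantile normalization, 0.07 in the deposited row order and 0.02 to 0.22 with 1 array left out. The peroxisomal median in the ovaries, -0.06, was -0.10 with median centring, -0.11 with the adipocyte covariate and -0.08 to -0.05 with 1 array left out. The peroxisomal median in fat, -0.16, was -0.072 with quantile normalization, -0.079 with median centring, -0.021 with the filter at the 75th percentile, -0.056 in the deposited row order, and -0.22 to -0.089 with 1 array left out. The deposited row order sets values of other rows under the names of the re-paired members, so its medians do not describe these members alone. The causes were not tested.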

Other observations

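Genes of the neighbouring mitochondrial pathways, for branched-chain amino acids, propionate and ketone bodies, were tested as a list of 19. None was called in either tissue at an adjusted p of at most 0.10 (limma), and 5 had an unadjusted p under 0.05 in each. In DHT fat 18 of the 19 had a higher mean, with a median log2 fold change of 0.26 beside -0.0059 over all genes, and DHT replicate 1 was the highest of the 6 arrays in 18. In the ovaries 9 of the 19 had a lower mean and the median was 0.01.

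Peroxisome biogenesis genes (Pex genes other than Pex11a) had medians of -0.15 over 12 tested in the ovaries and -0.10 over 13 tested in fat. None was called by limma, with 6 at an unadjusted p under 0.05 in the ovaries and 0 in fat. In the ovaries every DHT array lay under every control array for 7 of the 12 (58.3%), namely Pex2, Pex3, Pex5, Pex10, Pex13, Pex14 and Pex16, beside 13.1% of all genes tested.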
